A study of Homo sapiens with 12 samples.

Results

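TOV-112D cells treated with UCI-1001 were compared with cells of the same line treated with the vehicle DMSO. The groups were defined by the sample labels alone, and the comparison used 4 of the 12 libraries of the study, 2 with UCI-1001 and 2 with DMSO. The choice of this comparison was made with earlier results of these data known. TOV-112D is an established human ovarian carcinoma line, and all 4 libraries carry its p53 R175H genotype, a missense substitution in the DNA-binding domain. Both groups were treated for 3 h, with UCI-1001 at 10 µM. UCI-1001 is a small molecule that was examined as a corrector of mutant p53, and the comparison asks which transcripts differ after a short exposure. The remaining libraries are 2 of TOV-112D cells with the related compound UCI-1014, and 3 each of Saos-2 cells without p53 and with induced wild-type p53. The UCI-1014 libraries entered the same fit and so shared in its filter, scaling and estimate of spread. All values of the comparison come from 1 cell line at 1 time point, and nothing says whether the replicates were separate cultures. The p-values therefore measure the spread between replicate libraries of the TOV-112D groups, UCI-1014 included, which may be technical.

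When proteins misfold, the transcription factor HSF1 trimerises, binds heat shock elements in promoters and raises the chaperones that refold or hold such proteins. HSP70 family members do the refolding, J-domain proteins deliver clients to them and start their ATP cycle, HSP110 and BAG proteins exchange their nucleotide, and HSP90 matures kinases and receptors. A second program, the integrated stress response, works through the translation of ATF4, and oxidative or electrophilic stress acts through NRF2. Wild-type p53 raises arrest, apoptosis and feedback genes such as CDKN1A, PMAIP1 and MDM2, and the R175H protein has largely lost this function.

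The counts of the 4 libraries summed to 18683370 and 17880415 with DMSO and to 19730255 and 19491098 with UCI-1001. MT-CO1 held the largest share of the counts in each, 1.35% to 1.71%. Epithelial markers were at or near 0. KRT7, KRT18 and KRT19 had no counts in any of the 4 libraries, KRT8 had 1 to 9 counts, PAX8 at most 1, CDH1 16 to 30 and EPCAM 35 to 57. The mesenchymal filament gene VIM had 148501 to 164319, but the mesenchymal cadherin gene CDH2 had only 31 to 38. None of the 5 tested members of this list was called by edgeR or DESeq2, and neither were the 6 tested blood and stromal markers or the 4 tested osteoblast markers, and 1 of these 15 genes had an unadjusted p under 0.05. In bulk RNA a change in the share of responding cells and a change in the level per cell cannot be told apart.

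Of 14177 genes tested, 2232 differed between UCI-1001 and DMSO at an adjusted p under 0.05 (edgeR quasi-likelihood test), which is 15.7%. Of these, 1331 were higher with UCI-1001 (9.39% of the genes tested) and 901 were lower (6.36%). Counts of called members in the gene lists below are to be read beside these shares. The lists were chosen with earlier results of these data known, so a share above these is not independent support for a program. Most of the differences were small. The median log2 fold change was 0.36 among the higher genes and -0.26 among the lower ones, 950 of the higher genes lay under 0.5, and 818 of the lower genes lay above -0.5. Past a log2 fold change of 1 in size, 167 genes were higher (1.18%) and 18 were lower (0.127%). With 2 libraries a group, each library was therefore left out in turn. Each refit leaves 1 library in a group, so its spread comes from the groups that keep 2, UCI-1014 included. The call held in all 4 of these refits for 520 of the higher genes and 204 of the lower ones, including 108 of the 167 large rises and 2 of the 18 large falls. Genes named below as higher or lower kept their call in all 4 refits unless a library is named beside them.

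**Figure D1:**
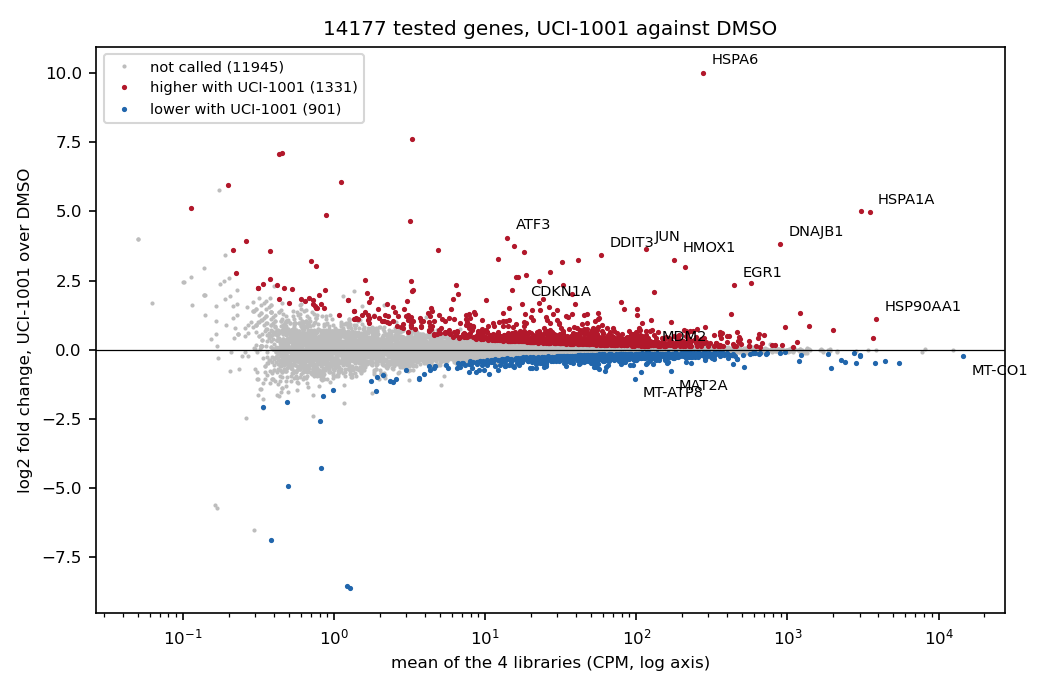
Log2 fold change of UCI-1001 over DMSO (vertical axis) against the mean level in the 4 libraries in CPM, counts scaled to a common library size (horizontal log axis), with 1 point per tested gene. Red points are the 1331 genes called higher, blue points the 901 called lower and grey points were not called; the large rises extend to HSPA6 at 10.02, and the called falls past -1 include BIVM-ERCC5 at -8.56, whose counts came from 1 DMSO library.

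The 5 marker genes chosen for this response were chaperone, heme-degrading and stress transcription factor genes, and in each of them both UCI-1001 libraries lay far above both DMSO libraries. They were picked as markers of the treated state, so their p-values are not independent support for the response. HSPA6, an inducible HSP70 that is nearly silent in unstressed cells (chromosome 1, 161524540 to 161526894, a gene of 1 exon), had 0.618 and 0.433 CPM with DMSO, from 12 and 8 counts, and 465 and 645 CPM with UCI-1001. Its log2 fold change was 10.02 ± 0.34 (SE, adjusted p = 1.2e-10), and the size of this value rests on those few DMSO counts. HSPA1A, the main stress-inducible HSP70 (chromosome 6, 31815543 to 31817946, 1 exon), had 227 and 207 CPM with DMSO and 6441 and 7151 after treatment, which is a log2 fold change of 4.97 ± 0.06 (adjusted p = 2.4e-16). DNAJB1, the inducible J-domain partner of HSP70 (chromosome 19, 14514769 to 14560391, 3 exons in its canonical transcript), went from 115 and 122 CPM to 1471 and 1854, a log2 fold change of 3.81 ± 0.10 (adjusted p = 2.6e-12). The groups did not overlap in these chaperone genes (29.4% of all tested genes were higher without overlap), and their distance was many times the spread between replicates. HMOX1, which degrades heme and is raised by NRF2 and by heat shock (chromosome 22, 35380361 to 35394214, 5 exons), had 34.2 and 34.4 CPM with DMSO and 295 and 351 after treatment (log2 fold change 3.24 ± 0.07, adjusted p = 8.6e-13). DDIT3, which encodes the stress transcription factor CHOP (chromosome 12, 57516588 to 57521737, 4 exons), had 9.59 and 10.5 CPM with DMSO and 90.9 and 123 after treatment (log2 fold change 3.42 ± 0.15, adjusted p = 2.2e-09).

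The promoters of 4 chaperone genes are printed, chosen because they hold matches to the heat shock element, the motif that HSF1 is known to bind. The same window of BAG3 and of HSPH1, which also rose, held no match. Each runs from 250 bases before to 50 after the RefSeq start site nearest the canonical transcript (GRCh38.p14), 5′ to 3′ on the strand of the gene. HSPA6 lies at chr1:161524290-161524589 on the plus strand, HSPA1A at chr6:31815293-31815592 on the plus strand, DNAJB1 at chr19:14518348-14518647 on the minus strand and HSP90AA1 at chr14:102086995-102087294 on the minus strand. Capitals mark an element of 3 units, TTCNNGAANNTTC or GAANNTTCNNGAA, where there is one, and otherwise each element of 2 units, TTCNNGAA or GAANNTTC. Each pattern reads the same on both strands as a set, and every 3-unit element contains 2-unit ones.
HSPA6: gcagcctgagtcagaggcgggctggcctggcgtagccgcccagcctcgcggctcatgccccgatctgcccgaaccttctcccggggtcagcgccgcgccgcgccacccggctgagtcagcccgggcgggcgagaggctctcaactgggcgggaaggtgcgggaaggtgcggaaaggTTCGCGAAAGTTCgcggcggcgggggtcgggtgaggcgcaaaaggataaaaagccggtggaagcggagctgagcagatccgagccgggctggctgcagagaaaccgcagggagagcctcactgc
HSPA1A: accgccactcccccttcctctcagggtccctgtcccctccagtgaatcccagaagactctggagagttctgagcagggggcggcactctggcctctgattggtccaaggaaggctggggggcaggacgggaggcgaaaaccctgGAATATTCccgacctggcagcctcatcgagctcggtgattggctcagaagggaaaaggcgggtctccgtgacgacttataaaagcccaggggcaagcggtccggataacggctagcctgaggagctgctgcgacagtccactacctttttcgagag
DNAJB1: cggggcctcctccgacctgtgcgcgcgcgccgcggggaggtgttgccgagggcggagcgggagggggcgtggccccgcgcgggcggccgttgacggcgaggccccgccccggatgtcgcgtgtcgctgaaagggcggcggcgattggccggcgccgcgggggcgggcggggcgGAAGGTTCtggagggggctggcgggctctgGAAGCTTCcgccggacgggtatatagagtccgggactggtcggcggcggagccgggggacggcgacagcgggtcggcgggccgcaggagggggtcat
HSP90AA1: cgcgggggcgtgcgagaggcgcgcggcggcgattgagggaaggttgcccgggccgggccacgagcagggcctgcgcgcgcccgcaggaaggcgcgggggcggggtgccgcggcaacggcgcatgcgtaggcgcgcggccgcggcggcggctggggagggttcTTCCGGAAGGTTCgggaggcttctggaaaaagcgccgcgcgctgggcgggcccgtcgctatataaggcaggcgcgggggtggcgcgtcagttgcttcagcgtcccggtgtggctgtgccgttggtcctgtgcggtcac

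The 3-unit element began 74 bases before the start site in HSPA6 and 88 before it in HSP90AA1, which encodes the inducible cytosolic HSP90. HSPA1A held a 2-unit element 106 bases before its start, and DNAJB1 held a pair at 77 and 47 bases before it. Among all 35116 promoters of this length in the RefSeq table, 0.490% held the 3-unit element and 13.5% a 2-unit one. Only 77.1% of the tested genes could be matched to a promoter of the table, so no share is compared between the higher and lower genes. HMOX1 is named without a promoter. A match describes the letters in this window and not the binding of a factor.

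Of 15 tested HSP70 and HSP110 genes, 11 were higher (73.3%, against 9.39% of all genes) and none was lower, with a median log2 fold change of 0.71 against 0.0016 over all tested genes, and 9 of the 11 calls held in every refit. HSPA1B, the near-identical neighbour of HSPA1A, had 190 and 183 CPM with DMSO and 5443 and 6542 after treatment (log2 fold change 5.01 ± 0.08, adjusted p = 6.0e-15). Reads of this pair can be assigned to either gene, and in the deposited table each symbol stands for 5 gene identifiers that were summed here, so the split between the pair is uncertain. HSPA1L, which shares the locus, went from 2.99 and 2.71 CPM to 29.2 and 37.6 (log2 fold change 3.55 ± 0.25, adjusted p = 2.8e-07) and carries the same uncertainty. HSPA7, an unprocessed pseudogene close in sequence to HSPA6, had 1 count in all with DMSO and 260 with UCI-1001, a ratio of 246 with an exact 95% interval from 43.7 to 9742, and its reads may belong to HSPA6. The cytosolic nucleotide exchange factors of the HSP110 branch rose as well. HSPH1 had 183 and 177 CPM with DMSO and 908 and 1016 with UCI-1001 (log2 fold change 2.42 ± 0.06, adjusted p = 1.3e-12), and HSPA4L rose by 2.07 ± 0.09 and HSPA4 by 0.50 ± 0.04 on the log2 scale. HSPA8, the constitutive cytosolic HSP70, rose from 1521 and 1505 CPM to 2353 and 2585, a log2 fold change of 0.71 ± 0.04. Members of the endoplasmic reticulum were mixed. HSPA5 had 692 and 679 CPM with DMSO and 696 and 706 with UCI-1001 and was not called (log2 fold change 0.03 ± 0.03, adjusted p = 0.58). HYOU1, of the HSP110 branch, was not called either (-0.04 ± 0.04, adjusted p = 0.62), while HSPA13 was higher by 0.28 ± 0.05 (adjusted p = 0.0012). The mitochondrial member HSPA9 was higher by 0.18 ± 0.03, but its adjusted p was 0.059 without DMSO replicate 1. The 15 genes together took 0.418% and 0.411% of the counts with DMSO and 1.83% and 2.07% with UCI-1001.

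Among the J-domain cochaperones 6 of 13 tested members were higher and none lower, with a median of 0.31. After DNAJB1 the order was DNAJB4, with 11.1 and 10.6 CPM against 47.6 and 62.4 (log2 fold change 2.34 ± 0.15), and DNAJA1, with 249 and 239 CPM against 570 and 622 (1.29 ± 0.05). DNAJB6 and DNAJB2, which suppress aggregation, were higher by 0.68 ± 0.05 and 0.60 ± 0.05. The HSP90 list had 8 of 15 members higher, none lower and a median of 0.40, and all 8 calls held in every refit. HSP90AA1 went from 2442 and 2472 CPM to 5035 and 5466 (log2 fold change 1.10 ± 0.04, adjusted p = 2.1e-10) and the constitutive HSP90AB1 from 3166 and 3221 to 4162 and 4281 (0.40 ± 0.03, adjusted p = 8.0e-07). CHORDC1 at 1.47 ± 0.06 and AHSA1, which stimulates the HSP90 ATPase, at 0.68 ± 0.04 led the cochaperones. HSP90B1 of the endoplasmic reticulum was not called, at -0.02 ± 0.03 (adjusted p = 0.73).

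BAG3, which links HSP70 to selective autophagy, rose from 46.7 and 48.3 CPM to 339 and 412 (log2 fold change 2.98 ± 0.09, adjusted p = 3.1e-11). In its list of BAG and small heat shock proteins 3 of 11 tested members were higher, with HSPB1 at 0.49 ± 0.04 and BAG2 at 0.56 ± 0.05, and 1 was lower, BAG1 at -0.19 ± 0.06, a call that was lost without any 1 of the 4 libraries (adjusted p from 0.096 to 0.28). CRYAB had few counts and was not called (log2 fold change 1.88 ± 0.70, adjusted p = 0.090). Of 10 chaperonin genes 8 were higher, of which 5 held in every refit, and none was lower. The mitochondrial ring gene HSPD1 went from 975 and 995 CPM to 1707 and 1848 (0.85 ± 0.04), its lid HSPE1 rose by 0.51 ± 0.04, and the cytosolic ring subunits were led by TCP1 at 0.57 ± 0.05 and CCT4 at 0.30 ± 0.04. The 5 tested heat shock factors and their regulators were not called by edgeR or DESeq2 (1 had an unadjusted p under 0.05), with HSF1 at 110 and 113 CPM with DMSO and 108 and 104 with UCI-1001.

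Levels corrected for transcript length place these genes in order within a cell. In TPM, a scale of transcript abundance with the same total in every library, the DMSO libraries had HSP90AB1 at 2089 and 2078, HSPA8 at 1269 and 1227, HSP90AA1 at 1209 and 1196, HSPD1 at 716 and 708 and DNAJB1 at 96.2 and 95.2, with HSPA6 far under 1. With UCI-1001 HSP90AB1 was at 2734 and 2792, HSP90AA1 at 2498 and 2682, HSPA8 at 1896 and 2077, HSPD1 at 1246 and 1344, DNAJB1 at 1134 and 1399 and HSPA6 at 335 and 461. DNAJB1 thus reached the level range of HSPD1, with which its values overlapped, and HSP90AA1 passed HSPA8. HSPA1A and HSPA1B are left out here because nearly all of their counts lay on identifiers that could not be joined to the transcript files.

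In the ubiquitin and autophagy list 8 of 12 tested members were higher, none was lower and the median was 0.38. UBB, a polyubiquitin gene that supplies free ubiquitin under stress, went from 691 and 692 CPM to 1205 and 1239 (log2 fold change 0.82 ± 0.04, adjusted p = 2.3e-09). ZFAND2A, an arsenite-inducible proteasome-associated protein, had 7.22 and 5.52 CPM with DMSO and 50.5 and 65.5 with UCI-1001 (3.18 ± 0.17). The autophagy receptor SQSTM1 rose by 0.63 ± 0.05 and MAP1LC3B by 0.47 ± 0.05. Of 31 proteasome subunit genes 5 were higher and none was lower, or 16.1% called against 15.7% of all genes, the largest change being PSMC2 at 0.24 ± 0.04, and none of the 5 calls held in every refit. The unfolded protein response of the endoplasmic reticulum had 3 of 18 members higher and none lower, with a median of 0.03. This is 16.7% called, near the 15.7% of all genes. HERPUD1, a component of the degradation machinery of this compartment, rose from 21.7 and 22.2 CPM to 46.9 and 60.3 (1.29 ± 0.11), and XBP1, a transcription factor of the response, rose by 0.74 ± 0.08. The third, ERN1, was higher by 0.32 ± 0.08, with an adjusted p of 0.22 without DMSO replicate 1, 0.065 without UCI-1001 replicate 1 and 0.070 without UCI-1001 replicate 2.

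**Figure D2:**
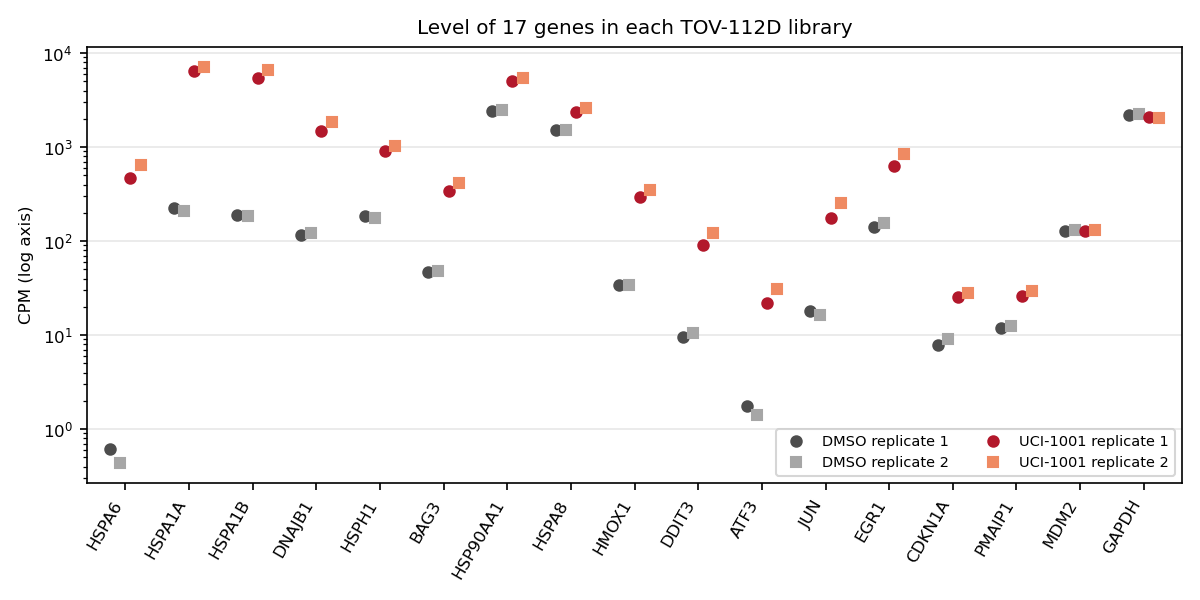
Level of 17 genes in CPM (log axis) in each of the 4 libraries, with 1 symbol per library and no error bars. The UCI-1001 libraries lie above the DMSO libraries from HSPA6 (0.618 and 0.433 against 465 and 645) to PMAIP1 (12 and 12.5 against 26.1 and 29.7), while MDM2 and GAPDH were not called.

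The integrated stress response list had the highest median of the stress lists, 1.36, with 11 of 14 members higher and 1 lower, and all 11 rises held in every refit. ATF3, a repressor induced downstream of ATF4 and by other stress signals, had 1.75 and 1.41 CPM with DMSO and 21.7 and 31.0 with UCI-1001 (log2 fold change 4.05 ± 0.24, adjusted p = 4.5e-08). CHAC1, which cleaves glutathione, went from 2.11 and 2.22 CPM to 24.5 and 33.6 (3.74 ± 0.22, adjusted p = 5.1e-08). SESN2, TRIB3, PPP1R15A and DDIT4, which restrain mTORC1, ATF4 output or the phosphorylation of eIF2, rose by 2.01 ± 0.12, 1.46 ± 0.06, 1.45 ± 0.10 and 1.27 ± 0.20. ATF4 itself went from 154 and 156 CPM to 213 and 208 (0.44 ± 0.04), a change far smaller than that of DDIT3. ATF5 was lower by 0.24 on the log2 scale, from 95.3 and 99.4 CPM to 83.1 and 81.3, and this call was lost in all 4 refits (adjusted p from 0.061 to 0.22). Genes of amino acid synthesis and transport were higher in 11 of 17 cases, 8 of them in every refit, with ASNS, which makes asparagine, at 0.77 ± 0.05, PSAT1 of serine synthesis at 0.70 ± 0.04 and the transporter SLC38A2 at 0.73 ± 0.08. Of 18 cytosolic aminoacyl-tRNA synthetase genes 11 were higher, 7 in every refit, with AARS at 0.83 ± 0.04 in front and the others at or under 0.40. None of either list was lower.

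Of 23 tested NRF2 targets 9 were higher and none was lower, with a median of 0.21. After HMOX1 came GCLM, the regulatory subunit of glutathione synthesis, with 39.1 and 36.6 CPM against 62.3 and 68.8 (log2 fold change 0.79 ± 0.07), and SLC7A11, the cystine importer, with 289 and 297 against 433 and 450 (0.59 ± 0.04, adjusted p = 8.3e-08). TXNRD1 rose by 0.51 ± 0.04 and SRXN1 by 0.40 ± 0.05. OSGIN1 was higher by 1.41 ± 0.42 at 0.433 to 2.58 CPM, with an adjusted p of 0.26 without DMSO replicate 2 and also without UCI-1001 replicate 1. NQO1, a widely used marker of this pathway, had 28.6 and 29.9 CPM with DMSO and 33.2 and 33.0 with UCI-1001 and was not called (0.18 ± 0.07, adjusted p = 0.10). Among 5 tested metallothionein and zinc export genes only SLC30A1 was called, at 0.24 ± 0.08, and it was lost in every refit (adjusted p from 0.072 to 0.30).

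Immediate early genes, which growth factor and stress kinases switch on without new protein synthesis, were higher in large part. In the AP-1 and small MAF list 9 of 11 tested members were higher and none lower, with a median of 0.59. JUN went from 18.2 and 16.3 CPM to 177 and 254 (log2 fold change 3.64 ± 0.19, adjusted p = 1.5e-08), FOS from 7.37 and 8.39 to 57.0 and 92.9 (3.25 ± 0.25, adjusted p = 7.2e-07) and MAFF from 5.41 and 4.55 to 28.9 and 35.8 (2.69 ± 0.12). FOS and JUN were each higher in UCI-1001 replicate 2 than in replicate 1, and this held widely: of the 167 large rises 122 were higher in replicate 2, against 7079 of all 14177 genes, with a median log2 ratio of 0.18 between the replicates. In the DMSO pair 84 of the 167 were higher in replicate 2.

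Of 23 EGR, NR4A, KLF and IER early genes 18 were higher, 15 of them in every refit, and none was lower, with a median of 0.72. EGR1, a zinc finger factor induced by ERK signalling, had 141 and 155 CPM against 625 and 855 (log2 fold change 2.32 ± 0.12, adjusted p = 8.5e-09). EGR2 had 0.412 and 0.0541 CPM with DMSO and 4.06 and 8.20 with UCI-1001 (4.65 ± 0.55), and KLF4 had 2 counts in all with DMSO and 69 with UCI-1001, a ratio of 32.6 with an exact 95% interval from 8.69 to 275. NR4A3 rose by 2.33 ± 0.22 and CYR61 by 1.73 ± 0.10. The dual-specificity phosphatases, which switch the MAP kinases off again, were higher in 6 of 9 tested cases, with DUSP2 at 1.79 ± 0.21, DUSP1 at 1.70 ± 0.19 and DUSP8 at 1.49 ± 0.11. DUSP7 was lower by 0.39, with an adjusted p of 0.12 without UCI-1001 replicate 2, of 0.073 without DMSO replicate 1 and of 0.085 without DMSO replicate 2. NF-kB feedback genes were higher in 3 of 12 tested cases, of which TNFAIP3, with 2.47 and 2.38 CPM against 6.44 and 6.39 (1.40 ± 0.18), held in every refit. Other genes among the 20 largest rises were EGR4 at 3.27 ± 0.22, PCSK5, a proprotein convertase, at 0.773 and 0.704 CPM against 7.58 and 10.5, CHRNA2, an acetylcholine receptor subunit with 1 count in all with DMSO and 88 with UCI-1001, and PTGS2, which makes prostaglandins, at 2.80 ± 0.18.

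**Figure D3:**
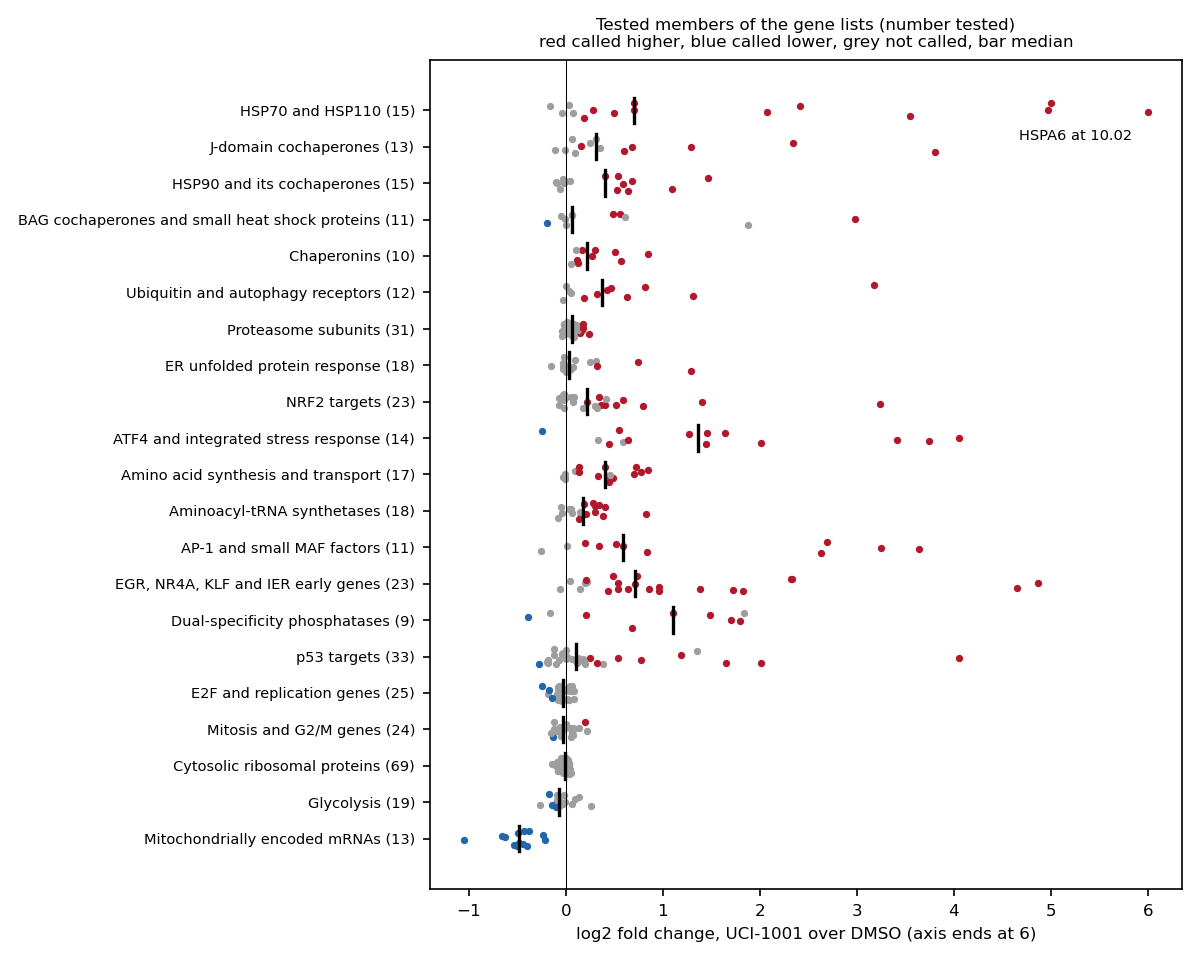
Log2 fold change of UCI-1001 over DMSO (horizontal axis, ending at 6) for the tested members of 21 gene lists, 1 point per gene, with the number tested in brackets and a black bar at the list median. Red points were called higher, blue points lower and grey points were not called; the median is 1.36 for the integrated stress response, 0.71 for HSP70 and HSP110, 0.10 for p53 targets and -0.48 for the mitochondrially encoded mRNAs.

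Of 33 tested p53 targets 8 were higher (24.2%) and 1 was lower, against 9.39% and 6.36% of all genes, with a median of 0.10, and 5 of the 8 rises held in every refit. CDKN1A, the p21 inhibitor of cyclin-dependent kinases, had 7.78 and 9.20 CPM with DMSO and 25.3 and 27.9 with UCI-1001 (log2 fold change 1.65 ± 0.10, adjusted p = 3.9e-08). PMAIP1, which encodes the BH3-only protein NOXA, went from 12 and 12.5 CPM to 26.1 and 29.7 (1.19 ± 0.12, adjusted p = 8.4e-06), and GADD45A from 3.81 and 3.68 to 6.59 and 6.24 (0.77 ± 0.15, adjusted p = 0.0022). The other 2 that held, ATF3 and SESN2, also stand in the integrated stress response list. BTG2 at 0.54 ± 0.13 was lost without DMSO replicate 1 (adjusted p = 0.073) and without DMSO replicate 2 (0.069), PPM1D at 0.33 ± 0.08 without DMSO replicate 1 (0.16) and UCI-1001 replicate 2 (0.059), and TNFRSF10B at 0.25 ± 0.05 without the same libraries (0.14 and 0.086). MDM2, the feedback ligase of p53, had 130 CPM in both DMSO libraries and 128 and 133 with UCI-1001 (0.00 ± 0.04, adjusted p = 0.97), and BBC3, which encodes PUMA, had 2.94 and 3.30 against 3.22 and 2.26 (-0.18 ± 0.22, adjusted p = 0.65). TRIAP1 was called lower, at -0.28 ± 0.08, and lost the call without DMSO replicate 1 (0.20), DMSO replicate 2 (0.079) or UCI-1001 replicate 1 (0.16). BAX, SESN1 and FAS were not called, at 0.14 ± 0.05, -0.07 ± 0.11 and 0.38 ± 0.19.

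Among 25 E2F and replication genes 3 were lower (12%, against 6.36% of all genes) and none was higher, with a median of -0.03, and none of the calls held in every refit. Mitotic genes had 1 higher and 1 lower of 24 (4.17% each, under the 9.39% and 6.36% of all genes), again with no call that held in every refit. Of 15 CDK inhibitors and G1 cyclins 1 was higher, CDKN1A, and 3 were lower (20%, against 6.36% of all genes). CCND1 fell from 257 and 259 CPM to 219 and 221 (log2 fold change -0.23 ± 0.04, adjusted p = 0.00052). CCNE1 was lower by 0.38, with an adjusted p of 0.098 without DMSO replicate 1, and CCNE2 by 0.39, with an adjusted p of 0.26, 0.073 and 0.25 without DMSO replicate 1, DMSO replicate 2 and UCI-1001 replicate 1. In the BCL2 family the anti-apoptotic MCL1 rose beside PMAIP1, from 311 and 315 CPM to 397 and 440 (0.42 ± 0.05, adjusted p = 2.1e-05). Of 14 tested members 5 were called higher (35.7%, against 9.39% of all genes). Those other than MCL1 and PMAIP1 lost the call when at least 1 library was left out. MYC had 344 and 348 CPM with DMSO and 321 and 310 with UCI-1001 and was not called (-0.13 ± 0.04, adjusted p = 0.059), while its antagonist MXD1 rose from 4.95 and 4.28 to 23.8 and 32.7 (2.61 ± 0.17). None of 69 cytosolic ribosomal protein genes was called by edgeR or DESeq2, 2 had an unadjusted p under 0.05 in edgeR, and the median was -0.01. Of 20 ribosome biogenesis genes 6 were lower (30%, against 6.36% of all genes) and 1 was higher (5%, against 9.39%). NCL, the nucleolin gene, went from 1308 and 1325 CPM to 1153 and 1141 (-0.20 ± 0.03) and NOLC1 from 338 and 334 to 286 and 294 (-0.21 ± 0.04), and these were the lower calls that held in every refit.

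The mitochondrially encoded mRNAs fell together. All 13 tested genes, which encode subunits of respiratory complexes and of the ATP synthase, were lower, with a median log2 fold change of -0.48, and the groups did not overlap in any of them, against 28.0% of all tested genes that were lower without overlap. Of the 13 calls 11 held in every refit. Together they took 4.79% and 5.28% of the counts with DMSO and 3.86% and 3.79% with UCI-1001. MT-CO1, a cytochrome c oxidase subunit and the gene with the most counts in each library, had 14967 and 16597 CPM with DMSO and 13224 and 13540 with UCI-1001 (-0.24 ± 0.04, adjusted p = 0.0021), and without DMSO replicate 2 its adjusted p was 0.068. MT-CO3 went from 6005 and 6798 CPM to 4538 and 4505 (-0.50 ± 0.06, adjusted p = 4.8e-05), and MT-ATP6, of the ATP synthase, from 2289 and 2472 to 1618 and 1390 (-0.66 ± 0.08, adjusted p = 5.1e-05). MT-ATP8, whose reading frame overlaps MT-ATP6, had 135 and 128 CPM with DMSO and 80.8 and 46.0 with UCI-1001 (-1.05 ± 0.17, adjusted p = 0.00066). The UCI-1001 replicates differed widely in this gene, and the value was -0.71 without replicate 2 and -1.51 without replicate 1. MT-CYB had the smallest fall, -0.22 ± 0.06, and its adjusted p was 0.27 without DMSO replicate 2 and 0.066 without UCI-1001 replicate 1. Whether the cells held fewer mitochondrial transcripts or more of other RNA cannot be told apart in shares of a library.

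**Figure D4:**
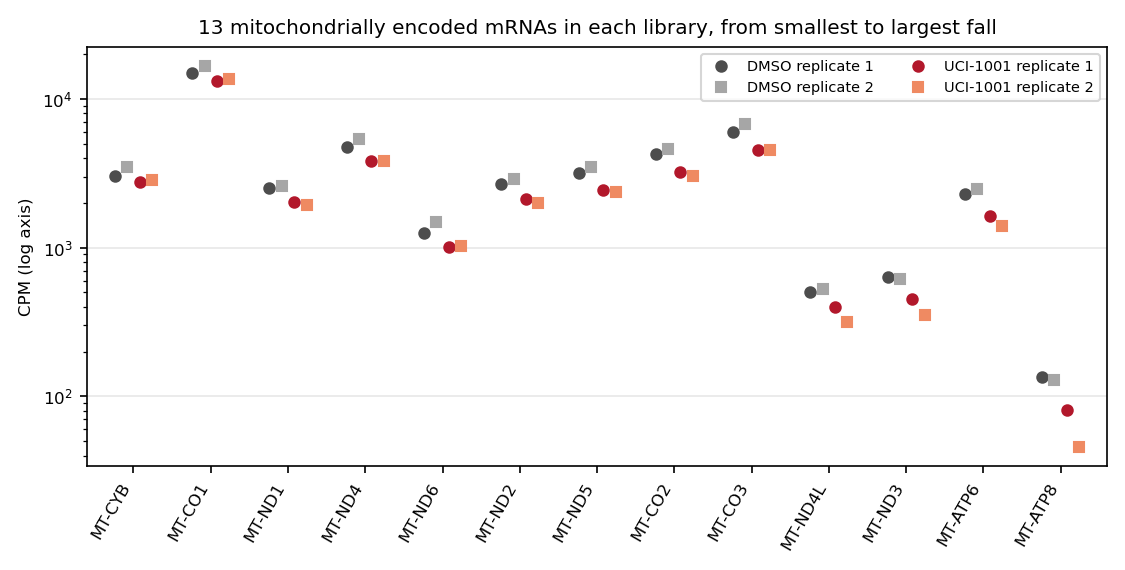
Level of the 13 mitochondrially encoded mRNAs in CPM (log axis) in each of the 4 libraries, ordered from the smallest fall (MT-CYB) to the largest (MT-ATP8). Both UCI-1001 libraries lie under both DMSO libraries in every gene, and in MT-ATP8 the UCI-1001 replicates themselves stand apart, at 80.8 and 46.0.

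Outside the mitochondrial genome, other genes also fell by more than the mitochondrial median of -0.48. MAT2A, which makes the methyl donor S-adenosylmethionine, went from 210 and 217 CPM to 125 and 124 (log2 fold change -0.78 ± 0.04, adjusted p = 9.1e-09), the fall with the smallest adjusted p among the 20 largest. GLIS2, a zinc finger repressor, went from 76.8 and 78.2 CPM to 45.7 and 45.6 (-0.76 ± 0.06, adjusted p = 3.7e-07). SETD1B, a histone H3 lysine methyltransferase, went from 68.3 and 71.1 to 45.9 and 40.7 (-0.69 ± 0.06, adjusted p = 4.8e-06), and POU3F2, a neural transcription factor, from 13.2 and 14.5 to 8.17 and 6.79 (-0.89 ± 0.13, adjusted p = 0.00027). Of the 20 largest falls by the naming rule, ZNF320, LHX4, RHBDL1, TCAP, AVPR2, CDC42EP2 and LFNG, with log2 fold changes between -1.51 and -0.98, were all under 6 CPM. Each lost its call when at least 1 library was left out, and so did several others of the 20 with smaller falls. For ZNF320, with 2.89 and 2.71 CPM against 0.446 and 1.51, the adjusted p was 0.15, 0.11 and 0.15 without DMSO replicate 1, DMSO replicate 2 and UCI-1001 replicate 1, and on the TPM scale its direction turned. Of 18 feedback targets of Notch, Hedgehog, Wnt and TGF-beta signalling 5 were lower (27.8%, against 6.36% of all genes) and 2 higher (11.1%, against 9.39%). The Hedgehog targets PTCH1, with 191 and 186 CPM against 141 and 133 (-0.46 ± 0.05), and GLI1 (-0.31 ± 0.06), the Wnt target AXIN2 (-0.36 ± 0.05) and the BMP target SMAD6 (-0.41 ± 0.07) were lower in every refit, while the BMP targets ID4 and ID2 rose by 1.16 ± 0.15 and 0.69 ± 0.09. Glycolysis genes were lower in 3 of 19 cases (15.8%, against 6.36% of all genes), none of which held in every refit. GAPDH had 2185 and 2236 CPM against 2087 and 2052 and was not called (-0.10 ± 0.03, adjusted p = 0.062).

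Other lists outside the stress programs also held called genes. Of 20 tested cholesterol and fatty acid synthesis genes 8 were higher (40%, against 9.39% of all genes) and 1 was lower (5%, against 6.36%). Several of these calls were lost when a library was left out. INSIG1, whose call held, had a log2 fold change of 0.50 ± 0.06, and the list median was 0.02. In a list of 11 tested histone genes, most of them replication-dependent, 7 were higher, 4 of them in every refit, with a median of 1.20. HIST1H2AC had 1.03 and 1.73 CPM against 3.96 and 5.33 (1.75 ± 0.26). Replication-dependent histone mRNAs mostly lack a poly(A) tail, and 6 of the 7 higher genes had 18 to 123 counts in a library. The other was H1F0, a linker histone whose mRNA is polyadenylated, with 248 and 253 CPM against 299.8 and 288 (0.23 ± 0.05), and its adjusted p was 0.11 without DMSO replicate 1 and 0.073 without DMSO replicate 2. In a mixed list drawn up for feedback genes of cAMP, inositol and calcium signalling 6 of 11 tested were higher. The arrestin-domain gene ARRDC3 led it at 4.90 and 6.06 CPM against 22.1 and 27.4 (2.17 ± 0.14), followed by TSC22D3 at 0.99 ± 0.09. Not all members are specific to these pathways, and whether the pathways were active was not tested. Hypoxia targets were higher in 3 of 11 tested cases (27.3%) and death receptor, caspase and IAP genes in 4 of 17 (23.5%), against 9.39% of all genes, and interferon response genes in 1 of 15 (6.67%), which is under that share. No call of these 3 lists held in every refit.

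On the CPM scale, which is relative and not corrected for transcript length, the gains were concentrated in few genes. Summed over the genes called higher, the mean level rose by 45341 CPM, of which HSPA1A and HSPA1B made up 27.3% and the 10 genes with the largest gain 48.3%. After HSPA1A (6579 CPM) and HSPA1B (5806 CPM) these included HSP90AA1, DNAJB1, HSP90AB1, HSPA8, HSPD1, HSPH1 and EGR1, the last with a gain of 592 CPM. The 10 largest losses summed to -10752 CPM and were 9 mitochondrially encoded mRNAs, from MT-CO1 at -2400 CPM to MT-CYB at -458 CPM, and the tubulin gene TUBB at -383 CPM, whose adjusted p was 0.051 without DMSO replicate 2.

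The canonical transcripts of the 167 genes with large rises had a median of 4 exons against 9 over all tested genes, 16.4% of them had 1 exon against 4.21%, and their median genomic span was 14645 against 32808 bases. They were expressed at a lower level, with a median of 4.38 CPM over the 4 libraries against 27.0. These differences were not shared by all 1331 genes called higher, which had a median of 8 exons, 4.14% with 1 exon and a span of 35124 bases. The genes called lower had a median of 10 exons and a span of 27885 bases. No test was made of these features. By transcript type, retained-intron transcripts held 2.20% and 2.17% of the estimated counts with DMSO and 2.02% and 1.92% with UCI-1001.

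Some calls rest on counts that a few reads or a reassignment of reads could make. Of 4 genes with a symbol, no DMSO counts and a call, CD300LB had 36 counts with UCI-1001, at least 11.3-fold higher against a floor of 3 counts over the DMSO group, MUC5AC had 16 (at least 5.04-fold) and ELOA2 had 9 (at least 2.84-fold, with its call lost without DMSO replicate 1, DMSO replicate 2 or UCI-1001 replicate 2, adjusted p = 0.22, 0.20 and 0.33). The readthrough gene MSANTD3-TMEFF1 had 35 counts in UCI-1001 replicate 1 and none in replicate 2, so its groups overlapped, and without UCI-1001 replicate 1 its adjusted p was 1.0. Among the falls, 2 were noticed after their values were seen. The readthrough gene BIVM-ERCC5 had 95 counts in DMSO replicate 1 and none in the other 3 libraries, and CT45A8, of a family of near-identical copies, had 15 and 14 counts with DMSO and none with UCI-1001.

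UCI-1014 was profiled in the same cells with the same DMSO libraries, and its dose is not given in the sources used here, so its values stand beside those of UCI-1001 without a comparison. HSPA6 was at 1745 and 1174 CPM, HSPA1A at 25117 and 23715, DNAJB1 at 5467 and 4678, HMOX1 at 1229 and 1192 and DDIT3 at 298 and 253 in the UCI-1014 libraries, and 47.1% of the tested genes were called against DMSO.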

How the data were processed

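The authors quantified the reads against GRCh38 with kallisto 0.48.0 (DESeq2 1.38.3 is also in the submitters' processing notes), summed estimated counts of the transcripts of each Ensembl gene and converted them to integers. The count table deposited by the authors holds these gene counts, not normalized. Per-library files deposited by the authors hold estimated counts and TPM per transcript. Columns were assigned to libraries by name and checked against the per-library files.

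Of 40295 rows, those with the same symbol were summed (1834 symbols, 5643 identifiers), rows without a symbol (8043) kept their identifier, and 27 of 29 symbols stored as dates were restored, leaving 36486 genes. The 6 TOV-112D libraries were fitted together in edgeR 4.0.16 (R 4.3.3) with filterByExpr, TMM and the quasi-likelihood test, and UCI-1001 was contrasted with DMSO, two-sided, with Benjamini-Hochberg adjustment. A gene was called at an adjusted p under 0.05. The biological coefficient of variation was 3.59%, and the chi-square per degree of freedom between replicates was 2.08 for DMSO and 3.24 for UCI-1001, more than counting error gives. CPM values use TMM library sizes. Errors of log2 fold changes are standard errors from the fit. In 3 simulations of this comparison over 14177 genes, 72.2%, 88.3% and 96.5% of genes changed by a log2 fold change of 0.5, 1 and 2 were recovered. Of the simulated calls 9.15% were false, more than the adjusted p threshold of 0.05 is meant to allow. The test was thus more liberal than its threshold in these simulations. The simulations changed a much smaller share of the genes than the 15.7% called in the data. The false share depends on that share, so it is not an estimate for the real calls.

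Genes were named by rule: 5 marker genes, the 20 largest rises and falls with a call, a mean level not under 1 CPM and groups that did not overlap, the 10 largest gains and losses of CPM, called members of each gene list, MDM2, CDKN1A, PMAIP1, BBC3, GAPDH and SLC7A11, and called genes with no DMSO counts. The comparison, its gene lists and the tests were chosen with earlier results of these data known. Coordinates are GENCODE 44 on GRCh38, which held 87.8% of the identifiers; promoters are RefSeq. TPM is printed only for genes with at least 95% of their counts joined to transcripts. Alternatives were other size factors, DESeq2 1.42.0, no filter, 4 or 12 libraries, rows not summed, a replicate block, each library left out, and limma 3.58.1 on log2(TPM + 1) with a minimum mean of 0.5. Saos-2 libraries entered only the fit of 12. Some genes are not reported here.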

Additional observations from a re-analysis of the deposited data

How the results depend on the processing

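Counts of calls moved with the setting. Against 2232 genes called (1331 higher, 901 lower, 167 and 18 past a log2 fold change of 1 in size), DESeq2 called 1149 (771 higher, 378 lower, 2 of the lower past 1), the fit of all 12 libraries 308 (256, 52 and 4) and limma on log2(TPM + 1) 399 (330, 69 and 8, with 88 higher genes past 1). Higher genes were 59.6% of the calls, 83.1% in the fit of all 12 libraries and 82.7% on the TPM scale. Without a filter 41 genes were lower past 1. Leaving out libraries in turn gave 952 to 1843 genes called, 641 to 1104 higher, 311 to 739 lower, 127 to 153 higher past 1 and 9 to 32 lower past 1; the number called was 952 without DMSO replicate 1, 1020 without DMSO replicate 2 and 1188 without UCI-1001 replicate 2. The replicate numbers shared by the groups gave a correlation of deviations of 0.063 over 2 pairs, so they were not taken as a pairing; with a replicate block 1774 genes were called, 1087 higher and 687 lower. Of the called genes that a setting could test, the direction was the same for 2232 of 2232 with the block and with 12 libraries. It was the same for 2187 of 2187 in DESeq2 and 2156 of 2196 on the TPM scale. These settings reuse the same DMSO and UCI-1001 libraries for genes already called, so the direction could hardly turn. The agreement is therefore not independent support. Among genes named by the rule, those whose log2 fold change turned were ZNF320 (0.23 on the TPM scale), PSMC6 (-0.16 on the TPM scale), MDM2 (-0.026 with 12 libraries, and from -0.027 to 0.031 when single libraries were left out) and BBC3 (from -0.46 to 0.042 when single libraries were left out). The cause was not tested. On the TPM scale 7 HSP70 and HSP110 genes were higher, 5 p53 targets were higher and 8 mitochondrially encoded mRNAs were lower, and of the ribosome biogenesis genes 2 were lower in DESeq2, none with 12 libraries and 3 on the TPM scale; without DMSO replicate 1, 5 p53 targets were higher. With 2 libraries a group, small changes of genes with few counts are beyond this depth.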

Other observations

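A pair of families stood out after their values had been seen and is given as values. Of 30 tested HOX genes, which set position along the body axis, 14 were lower and none was higher (6.36% and 9.39% of all genes), with a median log2 fold change of -0.30 and 28 of 30 below 0. HOXB3 went from 76.3 and 78.8 CPM to 50.2 and 56.1 (-0.55 ± 0.06, edgeR adjusted p = 3.0e-05), HOXA3 from 29.5 and 30.2 to 18.5 and 21 (-0.60 ± 0.08, adjusted p = 0.00018) and HOXC12 from 159 and 151 to 125 and 126 (-0.31 ± 0.04, adjusted p = 0.00028). The lower members came from the HOXA, HOXB and HOXC clusters. Leaving out each library in turn left 6 to 8 of the 30 called lower, and 6 calls, these 3 genes included, held each time. Of all 47 tested histone genes 18 were higher (38.3%, against 9.39% of all genes) and none was lower, with a median of 0.43. They include the histone genes of the list above, whose limits hold here too. Of 477 tested genes with a ZNF symbol, 66 were higher (13.8%) and 22 lower (4.61%), with a median of 0.07.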
